A study of Homo sapiens with 4 samples.

Results

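The genes described here are the enzymes that build cholesterol and fatty acids and the factors that set their transcription. They were chosen by gene name, and all 28 names were found among the 33845 genes of the deposited table. They comprise 9 enzymes from acetyl-CoA through mevalonate to squalene epoxide, 9 enzymes that close and trim the sterol ring, 6 regulators or carriers (SREBF1, SREBF2, INSIG1, INSIG2, SCAP and STARD4) and 4 enzymes of fatty acid synthesis (ACLY, ACACA, FASN and SCD). The study overexpressed GAP43, a growth cone protein of neurons, in SW620 cells, an established colorectal cancer line from a lymph node metastasis, to see which mRNAs differed from control cells. The GAP43 group (2 libraries) carried a Flag-GAP43 plasmid and the Control group (2 libraries) a control plasmid, each stably transfected, and no other treatment is named for either group. Per the paper, the GAP43 plasmid confers neomycin resistance, while no source used here gives the selection of the control cells or says whether either line was a clone or a pool. All cells were at passages 12 to 15 in medium supplemented with 2 mM glutamine and with serum of fetal calves at 10%, and serum lipoproteins are a source of sterol and fatty acid to cultured cells. Nothing states that each library had a culture of its own, so p-values reflect the spread between 4 libraries, and that spread may be technical.

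Cells make cholesterol from acetyl-CoA when little sterol reaches the endoplasmic reticulum. The membrane-bound SREBP factors, encoded by SREBF1 and SREBF2, are then escorted by SCAP to the Golgi, cut, and sent to the nucleus, where they switch on sterol and fatty acid genes, often beside a bound NF-Y factor at a CCAAT box. The INSIG proteins hold SCAP back when sterol is plentiful, and INSIG1 is itself a target of SREBP, so its mRNA is commonly used as a readout of the pathway.

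Values are FPKM, fragments scaled by the authors to gene length and library, so levels may be compared between genes. Fragments recovered from them summed to 17473071 to 21883137 per library, and each tested member rested on 262 to 23848 fragments in a library. Averaged over the libraries, 13507 genes reached 1 FPKM and were tested, among them 27 members. The targeted gene followed the labels, as GAP43 had 4.40 and 4.14 FPKM in control cells, against 16.3 and 9.89 FPKM in GAP43 overexpressed cells. The first principal component (64.4% of the variance) placed Control replicates 1 and 2 at -10.8 and -23.2 and GAP43 replicates 1 and 2 at -7.60 and 41.6, so the groups did not overlap but GAP43 replicate 2 stood far from the rest, and the second (19.3%) placed Control replicate 2 at 19.3, GAP43 replicate 2 at 5.51, Control replicate 1 at -9.18 and GAP43 replicate 1 at -15.7. Of 8 epithelial markers, 7 reached the mean of 1 FPKM (the exception was KRT20), and their summed level was 1193 to 1698 FPKM. Markers of endothelium, adipocytes and hepatocytes summed to 0.0640 to 1.17 FPKM per list, and of the fibroblast and leukocyte markers LUM and LYZ alone passed the mean, with PTPRC, which marks leukocytes, at 0 to 0.0122 FPKM and COL3A1, a fibroblast collagen, at 0 in all libraries.

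SW620 cells expressed nearly the whole route at moderate to high levels. SCD, which puts the first double bond into stearate, was the highest member, with 139 and 230 FPKM in control cells, against 119 and 146 FPKM in GAP43 overexpressed cells. FASN, which builds palmitate, had 82.02 to 133 FPKM over the libraries. Among the sterol enzymes, EBP, a sterol isomerase, and DHCR7, which carries out a last reduction to cholesterol, stood high, with 42.0 to 54.7 and 27.5 to 59.0 FPKM, as did FDFT1, the squalene synthase, with 29.4 to 62.8 FPKM. HSD17B7, a ketosteroid reductase, was the lowest tested member, with 3.01 to 4.71 FPKM. The ranges of SCD and FASN overlapped each other and lay above those of all other members.

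**Figure D1:**
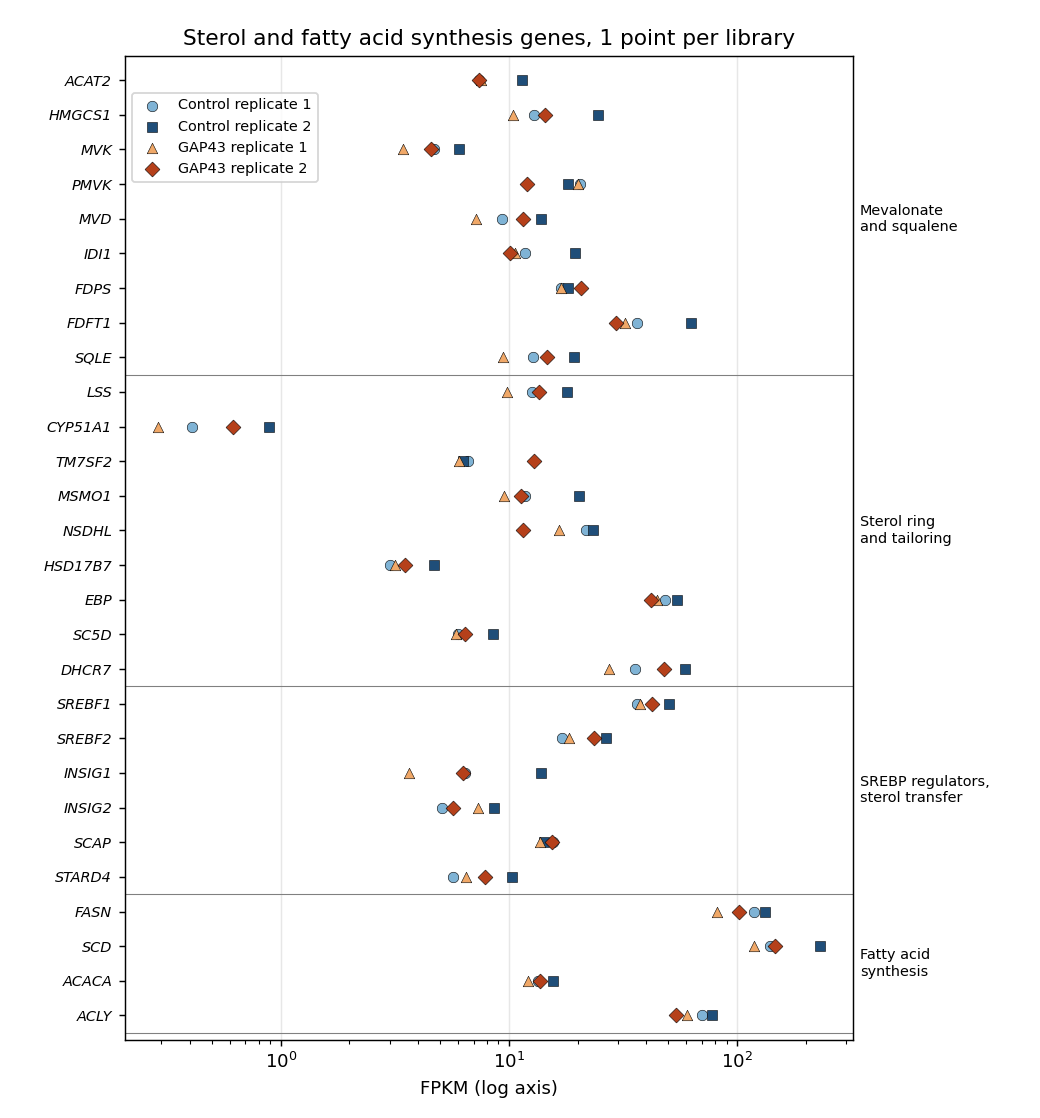
FPKM (log axis) of each of the 28 members in each library, with 1 point per library and the members grouped by role. The dark squares of Control replicate 2 lie furthest right for 24 of the 28 members, and SCD and FASN have the highest values.

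CYP51A1 was the member below the mean of 1 FPKM. This gene, the demethylase that acts on lanosterol, had 0.407 and 0.889 FPKM in control cells, against 0.289 and 0.616 FPKM in GAP43 overexpressed cells, from 26 to 70 fragments. In GENCODE release 29, 83.2% of its exon bases are also exon bases of another gene, 79.4% on the same strand. No source used here says how fragments in shared bases were counted, so these values may not be its level. In a fit without the filter its log2 fold change was -0.18 (standard error 0.23, limma, unadjusted p = 0.491). Of the other members, ACAT2 shared 52.3% of its exon bases with genes on the opposite strand, and FDPS, HMGCS1 and IDI1 shared 14.8% to 18.6%, and how their fragments were assigned is likewise not stated. The 10 pseudogenes named after members reached at most 0.205 FPKM.

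The clearest pattern lay between the Control libraries themselves. The planned tests compared the groups, and a comparison of the Control libraries with each other was not among them. INSIG1, which retains SREBP in the endoplasmic reticulum, had 6.43 FPKM in Control replicate 1 and 13.8 FPKM in Control replicate 2, a ratio of 2.15 (95% counting interval 1.92 to 2.40, from 495 and 972 fragments). HMGCS1, which makes HMG-CoA, had 12.8 and 24.7 FPKM, a ratio of 1.92 (1.79 to 2.06). STARD4, which carries cholesterol between membranes, had 5.70 and 10.3 FPKM, a ratio of 1.81 (1.65 to 2.00). These counting intervals are exact (Clopper-Pearson) and cover counting error only, and with 1 library on each side the difference has no replicate check.

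Of the 27 tested members, 24 were higher in Control replicate 2 than in Control replicate 1, where 54.3% of all genes tested were. The median difference of log2(FPKM + 1) was 0.51 for the members and 0.02 for all genes tested, with quartiles of -0.14 and 0.18 over all genes. A difference above 0.5 on this scale was reached by 14 members, or 51.9%, and by 5.01% of all genes tested. Control replicate 2 was the highest of the 4 libraries for 23 of 27 members (85.2%), against 32.6% of all genes tested. The summed FPKM of the 28 members was 707 and 970 in Control replicates 1 and 2, and 602 and 691 in GAP43 replicates 1 and 2. With each library scaled to the same total FPKM, the members' median difference between the Control libraries was 0.49 and that of all genes -0.04, and with median-ratio scaling 0.52 and 0.03. These scalings of single libraries were chosen after seeing the data, and the cut-off of 0.5 was not among the planned thresholds.

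The size of the difference varied by step. Between Control replicate 2 and Control replicate 1 the median log2 difference was 0.56 for the 9 enzymes to squalene epoxide, 0.47 for the 8 tested enzymes of the sterol ring, 0.64 for the 6 regulators and carriers and 0.18 for the 4 enzymes of fatty acid synthesis. Within the last group SCD was 1.66 times as high in Control replicate 2, with a counting interval of 1.62 to 1.69, while FASN was 1.12 times as high (1.09 to 1.14). ACACA, which makes malonyl-CoA, was 1.16 times as high (1.11 to 1.21) and ACLY, which makes acetyl-CoA from citrate, 1.101 times as high (1.07 to 1.14). Other members had ratios near or under 1. PMVK, a kinase of the mevalonate route, had a ratio of 0.886 (0.780 to 1.005), TM7SF2, a sterol reductase, 0.951 (0.832 to 1.09), and SCAP, the escort of SREBP, 0.918 (0.861 to 0.979). NSDHL, a sterol dehydrogenase, and FDPS, which makes farnesyl diphosphate, had ratios of 1.07 (0.978 to 1.18) and 1.08 (0.998 to 1.16). Since the mRNA is from bulk cells, fewer expressing cells and less mRNA per cell cannot be told apart.

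Most but not all tested epithelial markers were highest in the library where most members were. Of the 7 tested epithelial markers, 5 were highest in Control replicate 2, where 32.6% of all genes tested were. There CDH1, the epithelial cadherin, had 40.7 FPKM against 11.8 to 16.2 FPKM in the other libraries. KRT8, a keratin of simple epithelium, had 1113 against 754 to 832 FPKM. LUM, the 1 fibroblast marker that passed the mean, was also highest there, with 9.07 against 5.43 to 6.42 FPKM. CDX2, a transcription factor of the intestine, was lowest there, at 5.37 against 7.06 to 10.3 FPKM. KRT18, another keratin, was highest in GAP43 replicate 2, with 368 FPKM against 348 FPKM in Control replicate 2. The part of these markers in the members' difference was not tested.

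**Figure D2:**
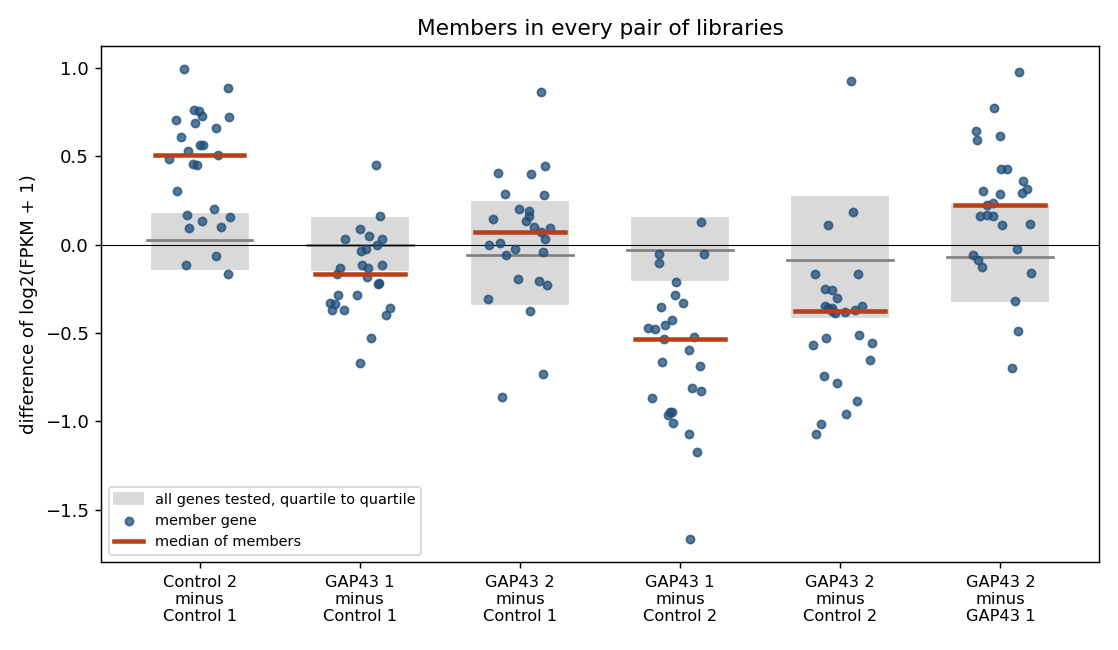
Difference of log2(FPKM + 1) between each pair of libraries for the 27 tested members (points, with their median as a red line) and for all 13507 genes tested (grey box from the lower to the upper quartile, grey line at the median). The members' median is 0.51 between the Control libraries, -0.53 and -0.37 for the GAP43 libraries against Control replicate 2, and -0.17 and 0.07 against Control replicate 1.

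Promoters of 24 of the 28 members were found in RefSeq (GRCh38.p14), 4 of them (ACLY, CYP51A1, DHCR7 and SCAP) with a start over 1000 bases from that in the table, and the 250 bases before the start were searched on both strands for a sterol regulatory element spelled TCACNCCAC, for the 5 letters of a CCAAT box, and for an E-box spelled CACGTG. Of 24 promoters, 17 (70.8%) held a CCAAT box, against 35.5% of 8568 promoters of genes tested and 33.02% of all 27305 promoters of that length. Among the 20 members whose start lay nearer, a count added after seeing the data, 16 (80.0%) held one. The promoters of other genes were not limited by distance in this way, so 80.0% has no like share beside it. The sterol regulatory element in this spelling stood in 1 of 24, against 0.890% of promoters of genes tested, and the E-box in 3 of 24 (12.5% against 9.19%). A match is a description of the letters and not a bound site. The stretches printed here show the boxes of INSIG1, HMGCS1 and MSMO1, which were among the members that differed most between the Control libraries, of SREBF2, whose promoter held the sterol regulatory element, and of NSDHL, the member that passed the unadjusted test between the groups. They are read 5′ to 3′ on the strand of the gene, the capitals mark the box in either orientation (its reverse complement reads ATTGG) and in SREBF2 also the sterol regulatory element, and each stretch ends before the gene's start in the table. Of the boxes counted in the 250 bases, the last of HMGCS1, of MSMO1 and of NSDHL, at 100, 34 and 84 bases before the RefSeq start, lie beyond the stretches.
INSIG1, chr7:155297633-155297732, plus strand: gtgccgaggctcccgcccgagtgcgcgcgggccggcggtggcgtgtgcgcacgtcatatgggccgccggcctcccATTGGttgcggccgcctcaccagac
HMGCS1, chr5:43313513-43313587, minus strand: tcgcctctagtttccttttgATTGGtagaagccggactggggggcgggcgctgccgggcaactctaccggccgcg
MSMO1, chr4:165327464-165327622, plus strand: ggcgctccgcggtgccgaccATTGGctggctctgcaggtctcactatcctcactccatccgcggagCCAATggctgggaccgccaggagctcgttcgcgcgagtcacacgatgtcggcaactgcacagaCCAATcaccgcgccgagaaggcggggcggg
SREBF2, chr22:41832952-41833023, plus strand: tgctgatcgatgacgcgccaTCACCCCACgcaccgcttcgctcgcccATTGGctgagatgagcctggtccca
NSDHL, chrX:152830815-152830966, plus strand: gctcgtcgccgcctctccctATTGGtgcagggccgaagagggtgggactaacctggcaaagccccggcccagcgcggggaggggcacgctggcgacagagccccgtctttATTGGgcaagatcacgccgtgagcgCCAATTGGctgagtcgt
In NSDHL the last capitals are boxes of both orientations that overlap. The 17 members with a CCAAT box had a median log2 difference of 0.51 between Control replicate 2 and Control replicate 1 (-0.06 to 0.99), and the 7 without one had 0.42 (-0.17 to 0.71), a median that is the value of CYP51A1, the member below the filter. Without that member, left out after seeing the data, the median of the other 6 was 0.33. The ranges overlapped.

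Between the groups, the members' values leaned lower in GAP43 overexpressed cells, and 25 of 27 had a log2 fold change below 0 by limma, against 55.5% of all genes tested. The median log2 fold change was -0.30 for the members and -0.04 for all genes tested. Both GAP43 libraries lay below both Control libraries for 9 members (33.3%), where 24.1% of all genes tested did, and above them for 0 members, where 17.1% did. At an unadjusted p under 0.05 by limma, 1 member was lower (3.70% of members, against 2.84% of all genes tested) and 0 were higher (against 3.05%). No gene of the table passed an adjusted p under 0.05 (0% called). Voom on recovered fragments gave 3 lower members at an unadjusted p (11.1%, against 4.58% of all genes tested) and 0 genes at an adjusted p. By counts of calls in the reported fit, the members were near the background of all genes. With a library left out, 1 group has a single library, which limma then assumes to vary like the other group, and the share of all genes called moves with the pair that supplies the spread. Lower at an unadjusted p were 5 members without Control replicate 1 (18.5%, against 1.71% of all genes tested), 0 without Control replicate 2 (against 0.57%), 3 without GAP43 replicate 1 (11.1%, against 18.6%) and 5 without GAP43 replicate 2 (18.5%, against 2.83%). The mitochondrial share of recovered fragments was 4.25% and 3.68% in Control replicates 1 and 2, and 4.93% and 6.78% in GAP43 replicates 1 and 2, so it was lowest in the library where most members were highest. Its part in the members' values was not tested. An exact permutation test of 2 against 2 libraries cannot go below p = 0.333.

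NSDHL (chromosome X from 152830967 to 152869729), which helps strip methyl groups from the sterol ring, was the member that passed. It had 21.8 and 23.4 FPKM in control cells, against 16.7 and 11.6 FPKM in GAP43 overexpressed cells. The groups did not overlap, and the Control libraries were close to each other, unlike those of MSMO1, its partner enzyme. Its log2 fold change was -0.66 (standard error 0.22, 95% interval -1.19 to -0.14, limma, unadjusted p = 0.0211, adjusted p = 0.692). Without Control replicates 1 and 2 the log2 fold changes were -0.71 and -0.62, and without GAP43 replicates 1 and 2 they were -0.91 and -0.42. NSDHL did not pass the unadjusted test in all of these fits.

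INSIG1 (chromosome 7 from 155297776 to 155310235) had the lowest fold change of the members. Its values were 6.43 and 13.8 FPKM in control cells, against 3.67 and 6.30 FPKM in GAP43 overexpressed cells. The groups did not overlap, but GAP43 replicate 2 lay just under Control replicate 1, at 0.981 times its level. The log2 fold change was -0.84 (standard error 0.37, limma, unadjusted p = 0.0608), -1.34 without Control replicate 1 and -0.35 without Control replicate 2. In those fits the unadjusted limma p-values were 0.00111 and 0.322. INSIG2, its relative, had 5.09 and 8.63 against 7.34 and 5.68 FPKM (Control against GAP43), with both GAP43 libraries between the Control libraries and a log2 fold change of -0.04 (95% interval -0.66 to 0.59). The difference between INSIG1 and INSIG2 was not tested.

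The SREBP factors themselves stood between the Control libraries. SREBF1, which drives fatty acid genes above all, had 36.5 and 50.5 against 37.4 and 42.2 FPKM (Control against GAP43). SREBF2, which drives sterol genes above all, had 17.1 and 26.6 against 18.2 and 23.7 FPKM. Log2 fold changes were -0.11 (95% interval -0.66 to 0.44) and -0.04 (-0.67 to 0.60), so changes of either sign within these bounds cannot be told from none. SCAP varied little, with 15.5 and 14.3 against 13.7 and 15.5 FPKM. STARD4 had 5.70 and 10.3 against 6.51 and 7.86 FPKM, again with both GAP43 libraries inside the Control range.

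Along the mevalonate route, 8 of 9 enzymes had a log2 fold change below 0, the exception being FDPS, and 0 of 9 passed the unadjusted test. ACAT2, the thiolase of the first step, had 7.36 and 11.4 FPKM in control cells, against 7.55 and 7.43 FPKM in GAP43 overexpressed cells. IDI1, an isomerase, had 11.7 and 19.6 against 10.6 and 10.1 FPKM, with no overlap and a log2 fold change of -0.51 (limma, unadjusted p = 0.0891). FDFT1, the squalene synthase that commits the route to sterols, had 36.6 and 62.8 against 32.2 and 29.4 FPKM, with no overlap and a log2 fold change of -0.63 (limma, unadjusted p = 0.0675). Without Control replicate 2 these fold changes were -0.16 and -0.24. SQLE, which makes squalene epoxide, had 12.7 and 19.3 against 9.41 and 14.7 FPKM, and the groups overlapped. The kinase MVK had 4.71 and 6.04 against 3.45 and 4.54 FPKM, with no overlap, and MVD, the decarboxylase of the same route, had 9.29 and 13.9 against 7.15 and 11.5 FPKM, with overlap. HMGCS1 had 10.4 and 14.4 FPKM in GAP43 overexpressed cells, on both sides of Control replicate 1. PMVK had 20.5 and 18.2 against 20.02 and 12.0 FPKM, with GAP43 replicate 2 alone apart, and FDPS had 16.8 and 18.2 against 16.8 and 20.8 FPKM.

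Beyond squalene epoxide, 7 of 8 tested enzymes had a log2 fold change below 0, and NSDHL passed the unadjusted test. LSS, which folds squalene epoxide into lanosterol, had 12.6 and 18.0 FPKM in control cells, against 9.83 and 13.6 FPKM in GAP43 overexpressed cells, and the groups overlapped. MSMO1, a sterol methyl oxidase that works with NSDHL, had 11.8 and 20.2 against 9.52 and 11.3 FPKM, with no overlap and a log2 fold change of -0.53 (limma, unadjusted p = 0.0923), or -0.17 without Control replicate 2. EBP had 48.5 and 54.7 against 44.7 and 42.0 FPKM, also with no overlap, at a log2 fold change of -0.24. DHCR7, at 35.7 and 59.0 against 27.5 and 47.7 FPKM, and SC5D, a desaturase, at 5.98 and 8.54 against 5.86 and 6.44 FPKM, overlapped between the groups. HSD17B7 had 3.01 and 4.71 against 3.16 and 3.49 FPKM, with both GAP43 libraries between the Controls. TM7SF2 went the other way in a single library, with 6.65 and 6.32 against 6.07 and 12.9 FPKM. Its log2 fold change was 0.41 with GAP43 replicate 2 and -0.08 without it.

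Of the enzymes of fatty acid synthesis, FASN and ACLY had no overlap between the groups. FASN (chromosome 17 from 82078333 to 82098332) had 119 and 133 FPKM in control cells, against 82.02 and 101 FPKM in GAP43 overexpressed cells, at a log2 fold change of -0.46 (standard error 0.23, limma, unadjusted p = 0.0881). It was -0.53 without Control replicate 1 and -0.38 without Control replicate 2. ACLY had 70.4 and 77.5 against 60.6 and 54.1 FPKM, a log2 fold change of -0.36 (limma, unadjusted p = 0.117). For both genes the Control libraries differed by less than the groups did. SCD overlapped, since GAP43 replicate 2 (146 FPKM) lay above Control replicate 1 (139 FPKM), and its log2 fold change was -0.44, or -0.08 without Control replicate 2. ACACA had 13.4 and 15.5 against 12.2 and 13.7 FPKM, and overlapped.

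**Figure D3:**
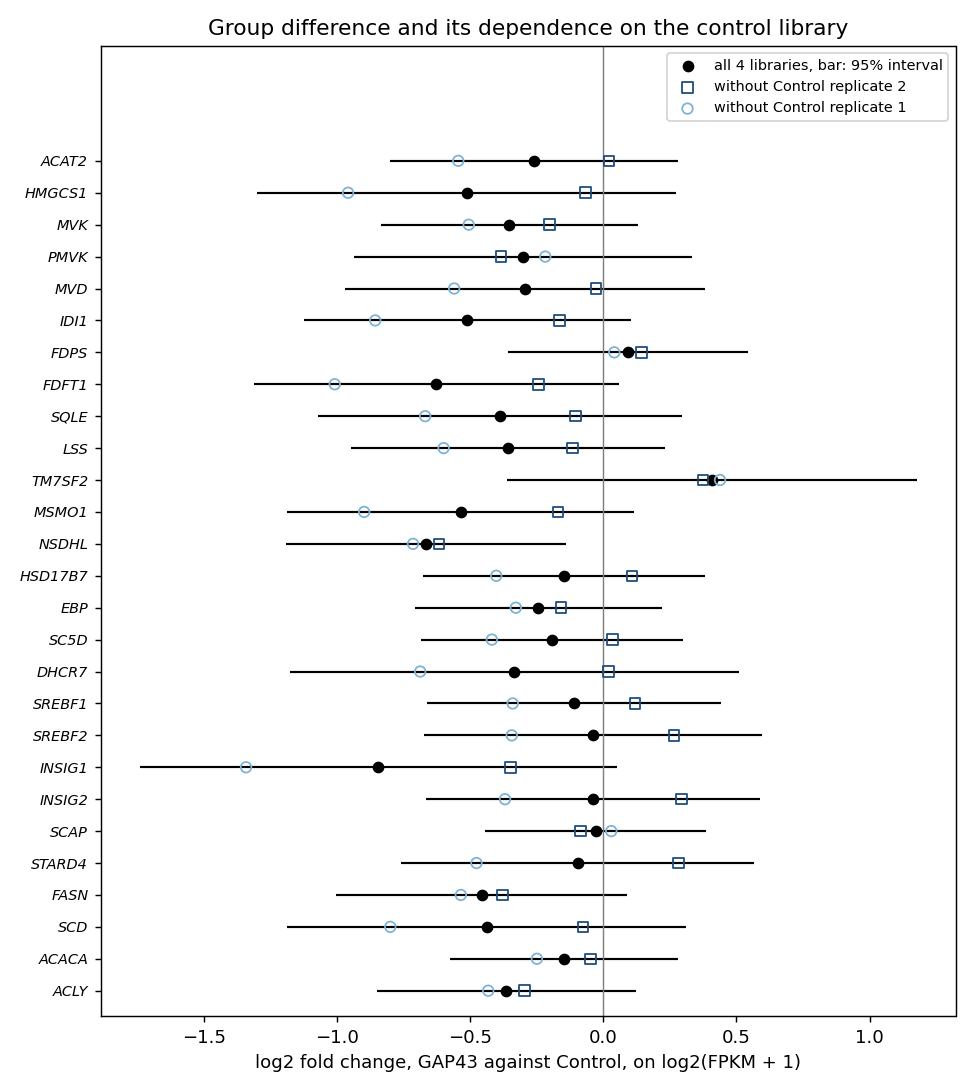
Log2 fold change of GAP43 against Control on log2(FPKM + 1) for each of the 27 tested members, with black points and 95% intervals from limma over all 4 libraries and open marks for fits without 1 Control library. The interval lies below 0 for NSDHL alone, and without Control replicate 2 the members' median lies at -0.08, against -0.50 without Control replicate 1.

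The comparison depended on which Control library was used. GAP43 replicate 1 was above Control replicate 1 for 7 of 27 members, and GAP43 replicate 2 for 16 of 27, with median log2 differences of -0.17 and 0.07. All genes tested had -0.00045 and -0.06 in the same pairs. Against Control replicate 2, 1 and 3 of 27 members were higher, with medians of -0.53 and -0.37 against -0.03 and -0.09 for all genes. The difference between the Control libraries was larger in size than the difference of the groups for 20 of 27 tested members, and 6 of 28 members had both GAP43 libraries inside the Control range. No share of all genes tested is given here for either count, so neither can be read as particular to the members. Between the GAP43 libraries, 19 of 27 members were higher in replicate 2, with a median log2 difference of 0.23 against -0.07 for all genes tested. Dividing FPKM by its sum moved the median fold change of all genes from -0.04 to 0.07 and the members' from -0.30 to -0.20. Relative to all genes the members stood at -0.26 in the reported fit and -0.27 with that scaling. The same difference was -0.17 with a filter at a mean of 5 FPKM and -0.22 over protein-coding genes alone. It was -0.45 without Control replicate 1 and -0.05 without Control replicate 2. Without GAP43 replicate 1 it was -0.12, and without GAP43 replicate 2 it was -0.27.

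Other genes of the pathway leaned less toward Control replicate 2. Of 67 tested genes in 4 further lists, 28 (41.8%) were highest there, and the median difference between the Control libraries was 0.07. Over the groups their median log2 fold change was -0.08, with 2 lower genes and 0 higher ones past an unadjusted p of 0.05 by limma, and 18 below and 4 above without overlap. The lower genes were 2.99% of the 67 and those below without overlap 26.9%, against 2.84% and 24.1% of all genes tested. Of all genes tested, 3.05% were higher by this p and 17.1% lay above without overlap.

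The other sterol and isoprenoid genes had the largest Control difference of these lists, with a median of 0.12 and 11 of 13 tested genes higher in Control replicate 2. COQ2, which joins the isoprenoid tail to coenzyme Q, was lower, with 9.10 and 10.1 against 7.603 and 5.43 FPKM (Control against GAP43), a log2 fold change of -0.51 (limma, unadjusted p = 0.0416, adjusted p = 0.692). PDSS1, which makes that tail, had 12.2 and 12.6 against 9.86 and 9.02 FPKM. ERG28, known from yeast as a scaffold of sterol enzymes, had 15.0 and 17.8 against 13.4 and 12.7 FPKM, and ACAT1, the mitochondrial thiolase, 25.2 and 26.8 against 23.4 and 17.1 FPKM. The groups did not overlap for any of these 4 genes, which were those of smallest p in the list. Of its 13 tested genes, 4 lay below without overlap (30.8%, against 24.1% of all genes tested) and 0 above (against 17.1%). For COQ2 the log2 fold change was -0.57 and -0.44 without Control replicates 1 and 2, and -0.72 and -0.30 without GAP43 replicates 1 and 2. COQ2 did not pass the unadjusted test in all of these fits.

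Among the other genes of fatty acid synthesis and lipid assembly, MID1IP1, an activator of acetyl-CoA carboxylase, was lower, with 43.1 and 48.7 FPKM in control cells, against 34.2 and 25.9 FPKM in GAP43 overexpressed cells. Its log2 fold change was -0.61 (limma, unadjusted p = 0.0292, adjusted p = 0.692). The fold change was -0.69 and -0.52 without Control replicates 1 and 2, and -0.80 and -0.41 without GAP43 replicates 1 and 2. MID1IP1 did not pass the unadjusted test in all of these fits. SLC25A1, the citrate carrier of mitochondria that supplies ACLY, had 34.9 and 42.3 against 27.5 and 30.8 FPKM. ELOVL1, a fatty acid elongase, had 42.9 and 45.2 against 35.7 and 29.2 FPKM, and IDH1, a source of NADPH, 13.9 and 19.8 against 13.5 and 9.87 FPKM. None of these overlapped between the groups. Of the 28 tested genes of this list 8 lay below without overlap (28.6%, against 24.1% of all genes tested). Above without overlap lay 4, where 17.1% of all genes tested did. The median log2 fold change of the list was -0.04.

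Genes that process SREBP and genes of sterol uptake, storage and efflux had medians near that of all genes tested. The 14 tested SREBP processing and turnover genes had a median of 0.04 between the Control libraries and -0.07 between the groups, with 0 at an unadjusted p under 0.05 in either direction by limma. Of these 14, 11 had a log2 fold change below 0 (78.6%, against 55.5% of all genes tested). Without overlap, 5 lay below (35.7%, against 24.1% of all genes tested) and 0 above (against 17.1%). ERLIN2, TMEM97 and RNF145 were among the genes of smallest p in this list, and RNF145, a ubiquitin ligase of the endoplasmic reticulum, had 13.4 and 12.9 against 11.4 and 11.0 FPKM (Control against GAP43). The 12 tested genes of uptake, storage and efflux had medians of 0.06 and -0.07, also with 0 called, and MYLIP, a ubiquitin ligase for lipoprotein receptors, had the smallest p, with 3.84 and 3.70 against 3.33 and 2.70 FPKM. NPC1, which exports cholesterol from lysosomes and was named after its values were seen, had 4.47 and 6.74 FPKM in control cells, against 4.86 and 5.96 FPKM in GAP43 overexpressed cells.

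**Figure D4:**
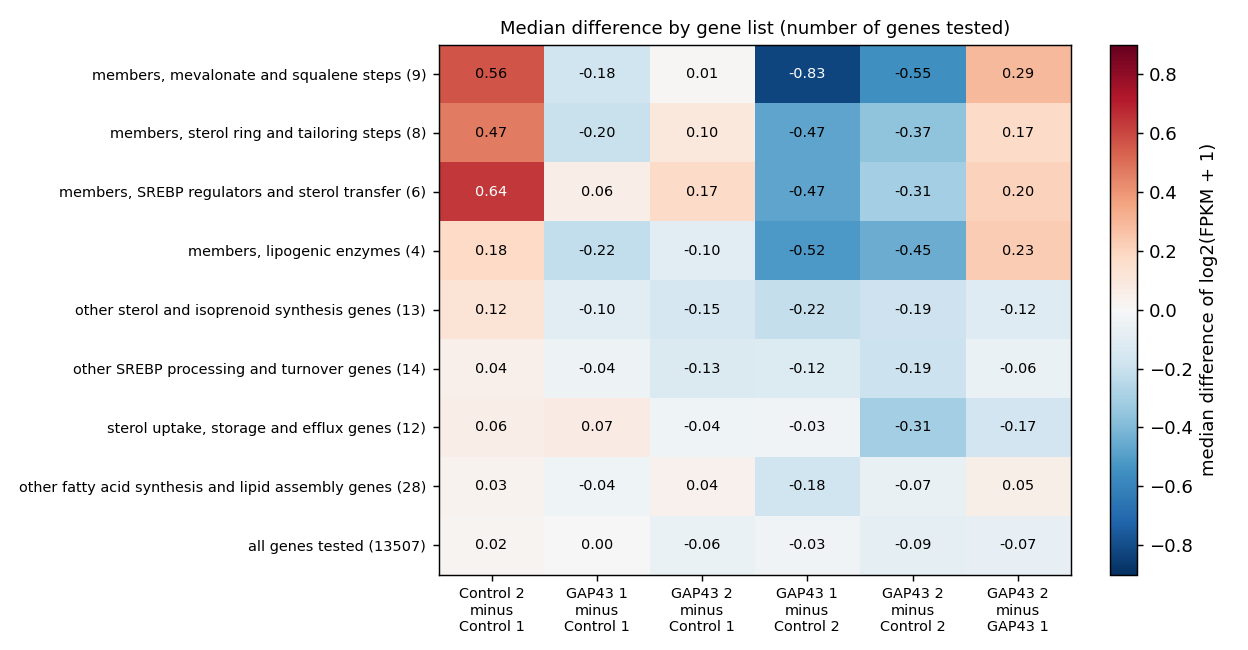
Median difference of log2(FPKM + 1) for each gene list (rows, with the number of genes tested) in each pair of libraries (columns). The 4 member lists run from 0.18 to 0.64 between the Control libraries, the other lists from 0.03 to 0.12, and all genes tested have 0.02.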

How the data were processed

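Poly(A) RNA of 2 GAP43 overexpressed and 2 control SW620 libraries was primed with random hexamers and read as 150 bp paired ends. The authors deposited FPKM values per gene and library. Named in the submitters' processing notes are the build hg19, Cuffdiff, Cufflinks 1.1 and TopHat2 2.0.13, but positions in the table are those of GRCh38 (27 of 28 members start where GENCODE release 29 places them). No source used here gives the counting tool or its strand setting. FPKM times gene length, deposited as a further column of bases, fell on whole fragments (within 0.01) for 100% of values above 0.

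Genes that averaged 1 FPKM or more were compared as log2(FPKM + 1) with limma 3.58.1 in R 4.3.3 (trended prior of 4.22 degrees of freedom, 2-sided), with Benjamini-Hochberg adjustment over all 13507 genes. A log2 fold change is on this scale, which understates changes of low genes. A call is an unadjusted p under 0.05. The fit was run on simulated counts in which all libraries varied alike. That run does not test the uneven spread seen between these libraries. Summaries used Python 3.11.15, pandas 2.3.3, scipy 1.17.1 and matplotlib 3.10.9. Members, other pathway lists and markers were chosen with earlier results of these data known. Named genes are all members, genes among the 4 of smallest p per other list (some are not reported here), and those said to be named after their values were seen. Promoters were those of RefSeq (GRCh38.p14) whose start lay nearest the gene's start in the table, at most 11520 bases away for a member. Alternatives were other pseudocounts, filters and scalings, protein-coding genes alone, a constant prior, voom on recovered fragments, replicate blocks and leaving out each library. Other assays in the paper are not analysed here.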

Additional observations from a re-analysis of the deposited data

How the results depend on the processing

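The members' median log2 fold change stayed below 0 under all alternatives run, from -0.37 with voom to -0.20 with FPKM divided by its sum, and leaving out each library gave -0.50 to -0.08. Lower members at an unadjusted p under 0.05 by limma numbered 1 in the reported fit (2.84% of all genes). They numbered 3 with a filter at a mean of 5 FPKM (4.64% of all genes), 2 over protein-coding genes alone (3.91%) and 3 with voom (4.58%). Over all genes, 383 were lower and 412 higher in the reported fit, 213 and 577 with FPKM divided by its sum, and 618 and 266 with voom. Higher members numbered 0 in the reported fit (3.05% of all genes). Leaving out a library by itself makes overlap rarer. Members whose GAP43 libraries lay below the Control libraries numbered 23 without Control replicate 1 (41.2% of all genes) and 11 without Control replicate 2 (33%). They numbered 10 without GAP43 replicate 1 (48%) and 19 without GAP43 replicate 2 (36%). Above the Control libraries, in the same order, lay 0, 7, 2 and 0 members (29.3%, 27.9%, 36% and 31.1% of all genes). The number of genes at an adjusted p under 0.05 was 0 in the reported fit and 0 to 15 without single libraries (15 without Control replicate 1). GAP43 itself kept its direction and call throughout, from 1.05 to 1.72 without single libraries.

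Replicate numbers are shared by the groups, but no source says that they pair the samples. Same-numbered deviations correlated at -0.16 across genes. With a replicate block 4 members were lower at an unadjusted p (2.81% of all genes) and 152 genes passed an adjusted p. With the crossed pairing, chosen after seeing the data, 3 members were lower (5.46% of all genes).

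With FPKM divided by its sum the sign turned for INSIG2 (0.076), SCAP (0.087), SREBF1 (0.0060), SREBF2 (0.078) and STARD4 (0.014). Leaving out single libraries turned the sign within these ranges: ACAT2 -0.54 to 0.022, DHCR7 -0.72 to 0.055, FDPS -0.051 to 0.24, HSD17B7 -0.40 to 0.11, INSIG2 -0.37 to 0.29, MVD -0.60 to 0.015, PMVK -0.65 to 0.048, SC5D -0.42 to 0.035, SCAP -0.11 to 0.054, SREBF1 -0.34 to 0.12, SREBF2 -0.34 to 0.27, STARD4 -0.48 to 0.28 and TM7SF2 -0.082 to 0.90. The unadjusted limma p-value of INSIG1 was 0.0608 in the reported fit, 0.000786 with the replicate block, 0.0326 with the 5 FPKM filter, 0.0395 over protein-coding genes, 0.0275 with voom, 0.00111 without Control replicate 1, 0.0309 without GAP43 replicate 2, 0.252 without GAP43 replicate 1 and 0.322 without Control replicate 2. With 2 libraries per group, the spread between replicates limits these comparisons. Depth was at least 262 fragments per tested member and library.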
